A study of Rattus norvegicus with 15 samples.

Results

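The genes described here encode the subunits and activators of the proteasome in rat liver. They were taken as the entries of the deposited expression table named Psma, Psmb, Psmc, Psmd or Psme followed by a number. Of 26407 entries, 45 carried such a name. For 2 symbols that had 2 entries each, Psmb6 and Psme3, the entry with the higher mean was kept, which left 43 genes. Averaged over the 15 libraries, 41 of these reached 1 FPKM or more and were tested among 11216 genes.

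Liver transcripts of Wistar rats were measured by RNA sequencing on the first day of weight regain, after 24 hours of refeeding that followed weight loss and its maintenance. Exercised rats had run on a treadmill while losing weight and holding it, and were refed ad libitum. Gap-matched rats had been sedentary and were refed a diet that the labels call energy gap-matched and do not define. Sedentary rats had neither treatment and were refed ad libitum. Each group had 5 libraries, numbered here as in the labels. Whether the libraries came from separate animals is not stated in the labels. The p-values therefore rest on the spread between libraries, which may be technical. Comparing exercised with sedentary rats addresses exercise before regain, together with any difference in what both ate ad libitum. Comparing gap-matched with sedentary rats addresses the refeeding diet without exercise. Exercised and gap-matched rats differed in both exercise and refeeding diet. Both comparisons with sedentary rats use the same 5 sedentary libraries, so their results are given side by side and do not support each other.

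The proteasome is the large protease that degrades proteins tagged with ubiquitin. Its barrel-shaped core is built of rings of alpha subunits (Psma genes) around rings of beta subunits (Psmb genes), of which Psmb5, Psmb6 and Psmb7 cut the substrate. A regulatory particle sits on the ends of the core. Its base holds a ring of ATPases (Psmc genes) that unfold the substrate, and its lid (most Psmd genes) removes the ubiquitin. Other activators (Psme genes) can bind the core in its place. In liver the proteasome turns over short-lived regulatory enzymes, and interferon-responsive beta subunits exchange into the core to form the immunoproteasome.

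Levels are FPKM, in which a gene's fragments are divided by its length and by the library's total, so they can be compared between genes. Differences are differences of log2(FPKM + 1), given with the standard error (SE). A gene is said to have risen or fallen where limma's adjusted p (Benjamini-Hochberg over all genes tested) was under 0.05. Depth relative to the first sedentary library ran from 0.678 in sedentary 5 to 1, and absolute depth is unknown. The number of genes at 1 FPKM or more per library was 11008 to 11365. All 10 hepatocyte markers were tested, and their summed level was 50276 to 63917 FPKM in exercised, 55663 to 60144 FPKM in gap-matched and 47708 to 61330 FPKM in sedentary libraries.

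The proteasome genes were mostly well expressed. The median member of the alpha ring had 102 FPKM over all libraries. The 4 structural beta subunits had a median of 181 FPKM and the 3 catalytic ones 114 FPKM. In the regulatory particle, the median was 76.5 FPKM for the 6 ATPases, 60.0 FPKM for the 3 other base subunits and 60.0 FPKM for the 8 lid subunits. The 3 chaperones that help to assemble the base, Psmd5, Psmd9 and Psmd10, were at 9.65 to 30.1 FPKM, below the lid subunit with the lowest mean, Psmd14, at 32.1 FPKM. Psmb4, a structural beta subunit, averaged 214 FPKM and stood above 95.5% of the genes tested, whereas Psmd10 stood above 49.1%.

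**Figure D1:**
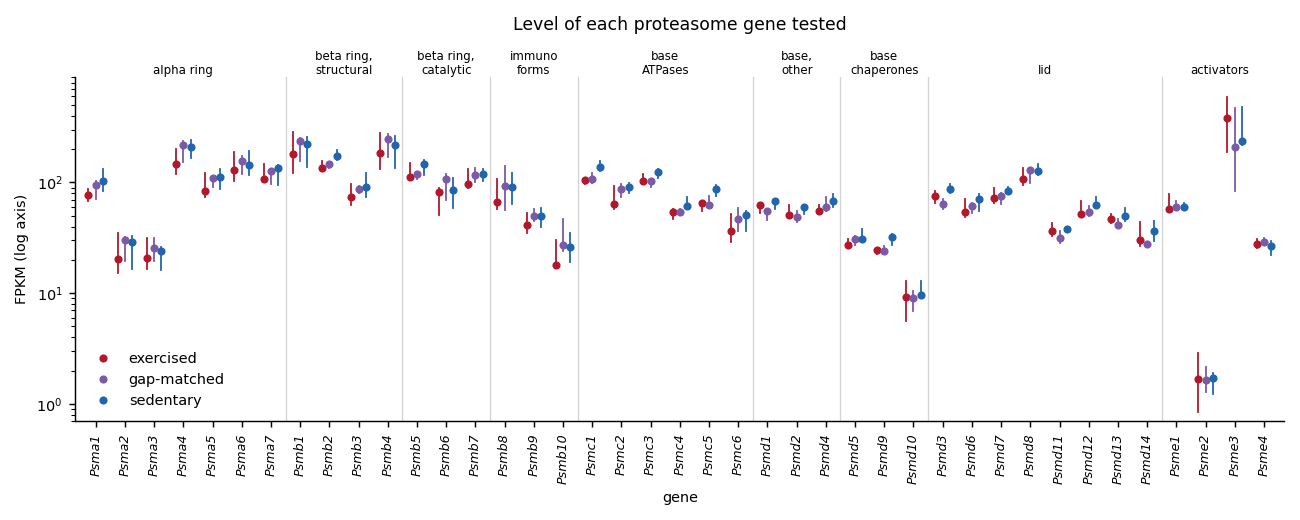
Level of each of the 41 proteasome genes tested, in FPKM on a log axis, grouped by place in the complex. Points are medians and lines run from the lowest to the highest of 5 libraries in exercised, gap-matched and sedentary rats, and the means run from 1.63 FPKM for Psme2 to 309 FPKM for the entry named Psme3.

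Forms of the core known from other tissues were near 0. Psma8, the alpha subunit of testis, was listed at 0 in 13 of 15 libraries and reached at most 0.149 FPKM. Psmb11, the beta subunit of thymus, was listed at 0 in 12 libraries and reached at most 0.148 FPKM. These are the only members that were not tested.

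The entry named Psme3 needs separate mention. It had the highest mean of all members, 309 FPKM, and the widest spread within groups, 0.80 on the log2 scale against a median of 0.18 over the members. It was at 595, 404, 187, 384 and 336 FPKM in exercised, 87.8, 373, 209, 83.2 and 471 FPKM in gap-matched and 218, 350, 477, 235 and 224 FPKM in sedentary libraries. The groups overlapped widely, and none of its 3 differences passed. The other entry named Psme3 was listed at 0 in all 15 libraries. RefSeq gives Psme3 both as the nuclear proteasome activator and as a synonym of G6pc1, the glucose-producing phosphatase of liver, and the data do not tell which of them this entry measured. It is counted below by its name only.

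In exercised rats 4 proteasome genes fell relative to sedentary rats and none rose, against 5.78% of all genes tested that changed, 3.26% falling and 2.51% rising. Those that fell were the base ATPases Psmc1 and Psmc5, the base chaperone Psmd9 and the structural core subunit Psmb2. The differences of 38 of 41 members were negative, against 48.7% of all genes. The median member difference was −0.21, against 0.01 over all genes. Without adjustment, 13 of 41 members (31.7%) had p under 0.05, against 21.1% of all genes. Fewer cells of a type and less RNA per cell cannot be told apart in these bulk samples.

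Psmc1 (ENSRNOG00000003951), an ATPase of the base, was at 99.8, 109, 105, 96.8 and 110 FPKM in exercised libraries, against 127, 138, 139, 138 and 157 FPKM in sedentary libraries. Every exercised library was below every sedentary one. It averaged 104 ± 5.61 FPKM in exercised and 140 ± 10.7 FPKM in sedentary rats (SD, n = 5 each), a log2 difference of −0.42 ± 0.08 (SE), with limma adjusted p = 0.00727. Psmc5 (ENSRNOG00000010038), another ATPase of the ring, was at 55.6, 67.9, 65.5, 67.5 and 58.1 FPKM in exercised libraries, against 75.6, 86.4, 86.5, 77.1 and 94.3 FPKM in sedentary libraries. The groups did not overlap, and the difference was −0.41 ± 0.09 (limma adjusted p = 0.0182).

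Psmd9 (ENSRNOG00000001339) encodes a chaperone of the ATPase ring that leaves before the proteasome is complete. It was at 22.8, 23.9, 24.7, 24.4 and 24.7 FPKM in exercised libraries, against 32.1, 34.4, 31.7, 32.3 and 27.0 FPKM in sedentary libraries. All exercised libraries lay close together and below the lowest sedentary one. The difference was −0.37 ± 0.07 (limma adjusted p = 0.00926), and its spread within groups, 0.089 on the log2 scale, was the smallest of the members. Psmb2 (ENSRNOG00000011463), a structural beta subunit, was at 129, 134, 142, 128 and 156 FPKM in exercised libraries, against 175, 172, 158, 174 and 197 FPKM in sedentary libraries. The highest exercised library was just under the lowest sedentary one, and the difference was −0.35 ± 0.08 (limma adjusted p = 0.0197).

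**Figure D2:**
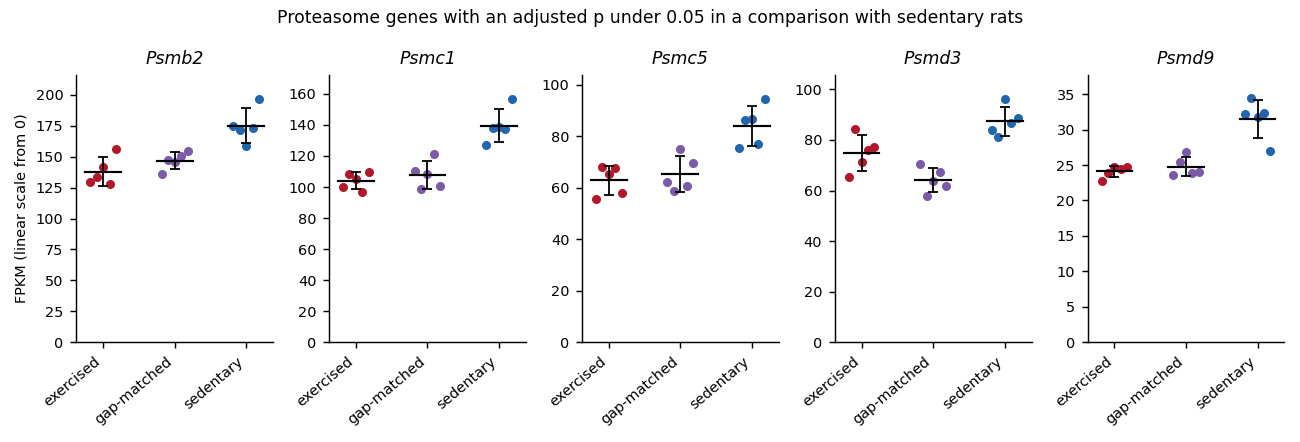
FPKM of the 5 proteasome genes that fell in exercised or gap-matched rats relative to sedentary rats, 1 panel per gene, on a linear axis from 0. Points are libraries and bars are the mean ± SD of 5. The exercised and gap-matched points lie below all sedentary points in every panel except that of Psmd3, in which the exercised points overlap the sedentary ones.

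In gap-matched rats 4 proteasome genes fell relative to sedentary rats and none rose, against 3.05% of all genes tested that changed, 2.23% falling and 0.82% rising. Psmc1, Psmc5 and Psmd9 fell here as well, and the other gene was Psmd3, a scaffold subunit of the lid. The differences of 30 of 41 members were negative, against 57.2% of all genes, with a median of −0.11 against −0.03 over all genes. Without adjustment, 14 of 41 members (34.1%) had p under 0.05, against 17.8% of all genes.

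Psmd3 (ENSRNOG00000028103) was at 70.3, 58.0, 63.9, 67.4 and 61.7 FPKM in gap-matched, 65.5, 84.5, 71.5, 76.1 and 77.0 FPKM in exercised and 83.9, 81.0, 96.1, 86.9 and 88.7 FPKM in sedentary libraries. The gap-matched libraries were all below the sedentary ones, while the exercised libraries overlapped both groups. Psmd3 averaged 64.2 ± 4.81 FPKM in gap-matched and 87.3 ± 5.73 FPKM in sedentary rats, a difference of −0.44 ± 0.08 (limma adjusted p = 0.0118). In exercised rats its difference from sedentary rats was −0.22 ± 0.08 (adjusted p = 0.134). Its difference between exercised and gap-matched rats was 0.22 ± 0.08 (adjusted p = 0.208).

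Psmc1 was at 110, 98.4, 108, 121 and 101 FPKM in gap-matched libraries, all below the sedentary ones, with a difference of −0.37 ± 0.08 (limma adjusted p = 0.0200). Psmd9 was at 23.7, 25.4, 26.9, 23.8 and 24.0 FPKM, a difference of −0.33 ± 0.07 (adjusted p = 0.0230), and its highest gap-matched library was just under its lowest sedentary one. Psmc5 was at 62.0, 58.7, 75.2, 60.6 and 69.6 FPKM, a difference of −0.36 ± 0.09 (adjusted p = 0.0463). Gap-matched 3 came within 1 FPKM of the lowest sedentary library for Psmc5. Psmb2 was at 136, 147, 146, 150 and 155 FPKM, also below every sedentary library, but its difference of −0.25 ± 0.08 did not pass (adjusted p = 0.105).

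Between exercised and gap-matched rats no proteasome gene passed limma's test, where 0.9% of all genes tested changed, 0.214% falling and 0.687% rising. Without adjustment 5 of 41 members (12.2%) had p under 0.05, fewer than the 16.5% of all genes. The differences of 27 of 41 members were negative, against 42.2% of all genes, with a median of −0.09 against 0.04 over all genes. The genes Psmc1, Psmc5 and Psmd9 differed between exercised and gap-matched rats by −0.05 ± 0.08, −0.05 ± 0.09 and −0.04 ± 0.07.

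Separation of the groups was also counted library by library, without a model. Exercised libraries lay wholly below sedentary ones for 5 members, Psmb2, Psmc1, Psmc4, Psmc5 and Psmd9, against 3.66% of all genes tested. Gap-matched libraries lay wholly below sedentary ones for 9 members, which were Psmb2, Psmc1, Psmc3, Psmc4, Psmc5, Psmd1, Psmd3, Psmd9 and Psmd14, against 4.56% of all genes. No member lay wholly above in either comparison, where 3.15% and 1.47% of all genes did. No member separated exercised from gap-matched libraries, where 1.04% of all genes lay wholly below and 2.27% wholly above.

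The number that fell depended on single libraries. In exercised rats it was 2 without exercised 1 or without sedentary 5, when Psmb2 and Psmc5 no longer passed. It was 3 without exercised 4, when Psmb2 did not pass, and 7 without exercised 5. The adjusted p of Psmb2 was 0.0515 to 0.0541 in these fits, and that of Psmc5 was 0.0511 without exercised 1 and 0.0503 without sedentary 5. In gap-matched rats it was 1 without gap-matched 5 or without sedentary 2, and 2 without gap-matched 1, 2 or 4 or sedentary 1, 3 or 5. Psmd3 passed without each of the 10 gap-matched and sedentary libraries in turn, with an adjusted p of at most 0.0320. Psmc1 did not pass without gap-matched 2 or 5 or sedentary 2 or 5 (adjusted p 0.0526 to 0.0560), and Psmd9 did not without gap-matched 1, 4 or 5 or sedentary 1, 2 or 3 (0.0512 to 0.0742). Of these fits, Psmc5 passed only without gap-matched 3 or sedentary 4 and otherwise had an adjusted p of 0.0528 to 0.120. When libraries were scaled to equal sums, 9 members and 3.11% of all genes fell in gap-matched rats, and with scaling by the median of ratios 2 members and 1.69% of all genes fell. Among all genes called in gap-matched rats, 73.1% were lower as deposited and 83.9% with equal sums. This share was 58.9% with the median of ratios and 59.5% after quantile normalization.

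The start regions of the 5 genes that fell are shown because these genes carry the result, and because proteasome genes are known to be controlled together through short elements near their starts. Each runs from 250 bases before to 50 bases after the gene's start in RefSeq (build GRCr8) and is written along the gene's strand. Capitals mark the letters TGACNNNGC or TGAGNNNGC on either strand, a pattern found in antioxidant response elements. Transcription factors of the Nfe2l family, one of which raises proteasome gene expression when the proteasome is inhibited, are known to bind such elements.
Psmb2, chr5:144254808-144255107, plus strand: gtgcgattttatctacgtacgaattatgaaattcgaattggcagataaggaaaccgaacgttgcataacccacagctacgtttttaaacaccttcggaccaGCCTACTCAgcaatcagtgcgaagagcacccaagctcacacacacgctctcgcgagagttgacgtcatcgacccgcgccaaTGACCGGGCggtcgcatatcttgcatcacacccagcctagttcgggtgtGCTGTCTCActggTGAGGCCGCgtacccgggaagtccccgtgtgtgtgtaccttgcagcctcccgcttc
Psmc1, chr6:125122247-125122546, plus strand: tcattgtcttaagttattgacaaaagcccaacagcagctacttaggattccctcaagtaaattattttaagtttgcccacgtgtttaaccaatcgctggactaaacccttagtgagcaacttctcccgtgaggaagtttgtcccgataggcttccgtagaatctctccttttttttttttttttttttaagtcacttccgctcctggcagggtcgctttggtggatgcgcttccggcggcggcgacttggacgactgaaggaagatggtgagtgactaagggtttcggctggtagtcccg
Psmc5, chr10:91687303-91687602, plus strand: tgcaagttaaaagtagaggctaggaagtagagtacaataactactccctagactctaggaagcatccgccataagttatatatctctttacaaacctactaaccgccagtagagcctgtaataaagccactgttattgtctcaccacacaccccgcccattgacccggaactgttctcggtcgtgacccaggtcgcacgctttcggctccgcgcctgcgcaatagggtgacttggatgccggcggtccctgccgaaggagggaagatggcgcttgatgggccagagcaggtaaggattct
Psmd3, chr10:84139688-84139987, plus strand: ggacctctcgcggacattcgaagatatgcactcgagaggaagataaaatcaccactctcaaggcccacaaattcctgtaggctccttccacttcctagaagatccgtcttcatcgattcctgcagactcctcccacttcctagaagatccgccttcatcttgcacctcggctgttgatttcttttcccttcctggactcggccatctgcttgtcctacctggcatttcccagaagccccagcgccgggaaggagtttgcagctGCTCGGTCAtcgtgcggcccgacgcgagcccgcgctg
Psmd9, chr12:39018215-39018514, minus strand: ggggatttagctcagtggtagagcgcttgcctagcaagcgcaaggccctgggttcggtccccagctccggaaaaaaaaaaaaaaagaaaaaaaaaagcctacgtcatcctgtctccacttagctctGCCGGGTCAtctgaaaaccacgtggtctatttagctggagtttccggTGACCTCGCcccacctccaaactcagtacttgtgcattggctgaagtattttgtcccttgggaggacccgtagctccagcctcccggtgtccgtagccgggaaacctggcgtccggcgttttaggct

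Searched on both strands, TGACNNNGC was in the start regions of 8 of 38 members that the RefSeq table holds (21.1%), against 12.1% of all 33469 start regions. TGAGNNNGC was in 8 of 38 (21.1%), against 17.2%. These patterns differ in 1 base and cannot match at the same place on the same strand. As shown above, Psmb2, Psmd3 and Psmd9 held the first of them, and Psmb2 also the other one. The windows of Psmc1 and Psmc5 held neither. CCAAT, the box bound by NF-Y, was in 19 of 38 members (50%), against 37.5% of all regions, and TTCNNGAA, the core of heat shock elements, in 2 (5.26%), against 8.77%. The members' start regions were richer in G and C, with a median of 56% against 51.7%, and a match describes these letters only.

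**Figure D3:**
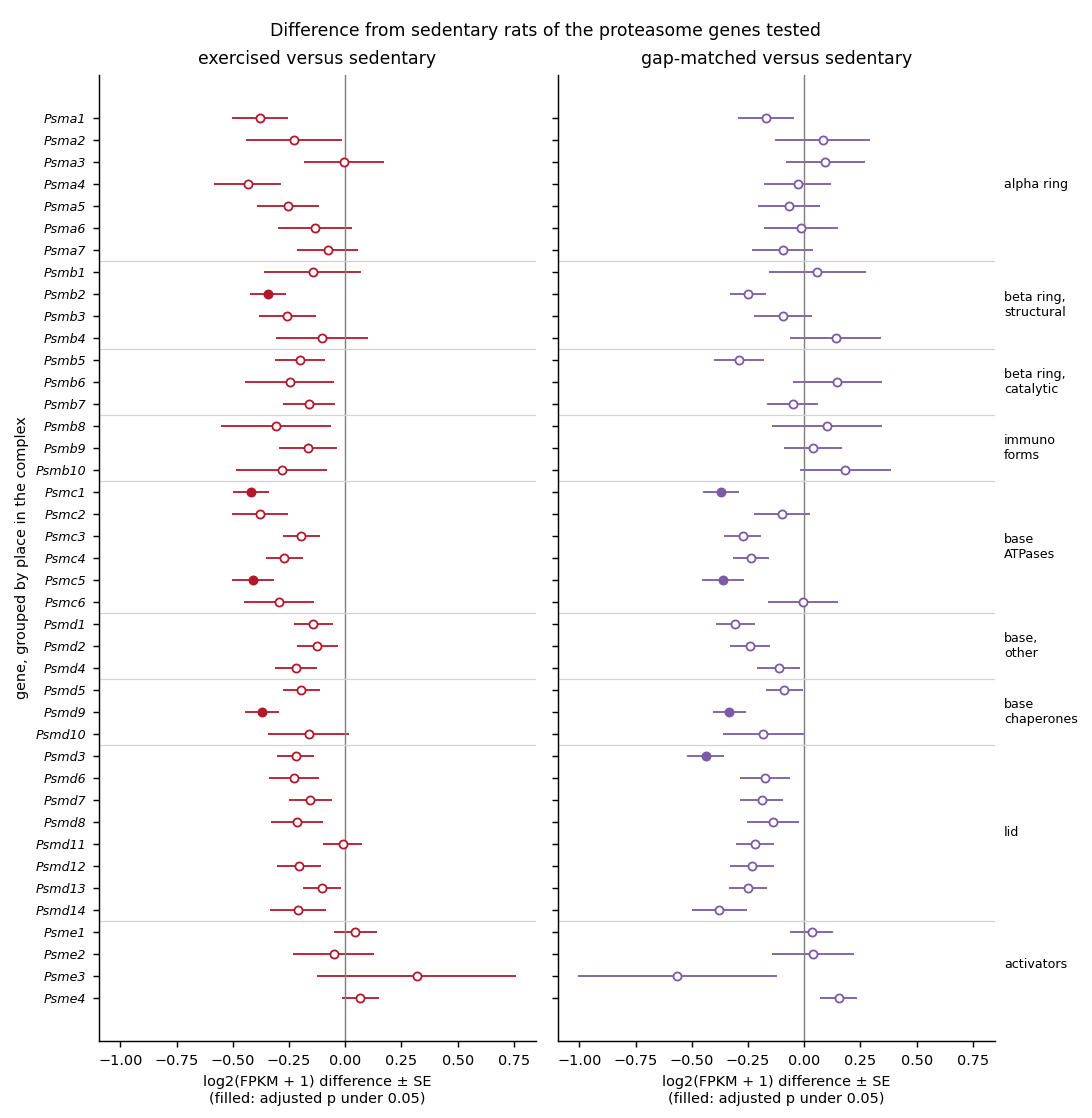
Log2(FPKM + 1) difference ± SE of the 41 proteasome genes tested, exercised versus sedentary on the left and gap-matched versus sedentary on the right. Filled points have an adjusted p under 0.05. Both panels share the sedentary libraries. All base and lid genes lie left of 0 in both panels, though Psmd11 in the left panel and Psmc6 in the right one only by −0.01. Of the 14 standard core ring genes, all lie left of 0 in the left panel and 9 in the right one, where they run from −0.29 to 0.15.

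By place in the complex, the alpha ring that gates the core had 7 members tested, and none passed in any comparison by limma. Without adjustment 2 had p under 0.05 in exercised against sedentary rats, none in gap-matched against sedentary rats and 1 in exercised against gap-matched rats. The median differences were −0.23, −0.03 and −0.19 in the same order of comparisons. Psma4 was at 146, 119, 167, 133 and 199 FPKM in exercised, 182, 222, 152, 218 and 235 FPKM in gap-matched and 215, 211, 167, 191 and 241 FPKM in sedentary libraries. Its difference was −0.43 ± 0.15 in exercised (adjusted p = 0.102) and −0.03 ± 0.15 in gap-matched rats (adjusted p = 0.945) against sedentary rats, and −0.40 ± 0.15 between exercised and gap-matched rats (adjusted p = 0.194). The exercised libraries overlapped both other groups. Psma1 was at 68.7, 75.8, 86.5, 76.7 and 86.8 FPKM in exercised, 71.2, 94.9, 89.0, 100.1 and 103 FPKM in gap-matched and 92.7, 104, 84.6, 105 and 133 FPKM in sedentary libraries. Its exercised libraries reached into the sedentary range only through sedentary 3 (−0.38 ± 0.12, adjusted p = 0.0873).

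Psma3 is uncertain because an entry with a related name exists. The entry Psma3l, a name that RefSeq gives as a synonym of Psma3, had 7.51 to 11.0 times the FPKM of Psma3 in the same libraries, 222 against 23.9 FPKM on average. Reads may be shared between them, but their sequences were not compared. The same holds for the second entry of Psmb6, at 0.215 to 0.403 of the entry used. That second entry, not counted as a member, was at 13.1 to 23.6 FPKM in exercised libraries. It was at 23.9 to 43.3 FPKM in gap-matched and 18.7 to 35.3 FPKM in sedentary libraries. Its exercised libraries thus lay just below all gap-matched ones, whereas those of the Psmb6 entry used overlapped them. RefSeq lists pseudogenes or like copies named after 18 members. Adding the second entries to Psma3 and Psmb6 left the same 4 genes lower in exercised and the same 4 lower in gap-matched rats.

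Of the 4 structural beta subunits, Psmb2 alone passed, in exercised against sedentary rats. Psmb3 was at 73.3, 62.3, 86.5, 71.9 and 96.7 FPKM in exercised, 81.0, 87.6, 82.8, 89.6 and 92.5 FPKM in gap-matched and 98.4, 91.5, 74.4, 83.5 and 121 FPKM in sedentary libraries. Its groups overlapped, and its differences from sedentary rats were −0.26 ± 0.13 in exercised (adjusted p = 0.266) and −0.09 ± 0.13 in gap-matched rats (adjusted p = 0.750). Psmb1 and Psmb4 had differences of −0.15 ± 0.22 and −0.10 ± 0.20 in exercised rats, and of 0.06 ± 0.22 and 0.14 ± 0.20 in gap-matched rats.

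None of the 3 catalytic subunits passed by limma. Psmb5, which carries the chymotrypsin-like activity, was at 110, 109, 148, 111 and 147 FPKM in exercised, 110, 120, 107, 125 and 120 FPKM in gap-matched and 148, 138, 118, 151 and 160 FPKM in sedentary libraries. Exercised 3 and exercised 5 were high within their group, and both other groups overlapped the exercised libraries. The difference from sedentary rats was −0.20 ± 0.11 in exercised (adjusted p = 0.325) and −0.29 ± 0.11 in gap-matched rats (adjusted p = 0.184). Psmb6, which carries the caspase-like activity, was at 81.7, 51.0, 86.4, 60.7 and 89.4 FPKM in exercised, 79.8, 110, 68.9, 108 and 119 FPKM in gap-matched and 102, 85.8, 58.9, 81.6 and 110 FPKM in sedentary libraries. Psmb7, which carries the trypsin-like activity, was at 96.3, 89.9, 123, 95.2 and 132 FPKM in exercised, 102, 117, 106, 134 and 117 FPKM in gap-matched and 119, 119, 104, 121 and 133 FPKM in sedentary libraries. Exercised 2 was the lowest library of all 15 for Psmb6 and Psmb7.

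The immunoproteasome subunits Psmb8, Psmb9 and Psmb10 replace Psmb5, Psmb6 and Psmb7 in newly built cores. None passed in any comparison. Psmb8 was at 79.1, 60.8, 67.1, 58.2 and 106 FPKM in exercised, 56.5, 92.3, 81.3, 142 and 138 FPKM in gap-matched and 74.8, 90.2, 111, 64.2 and 121 FPKM in sedentary libraries. Psmb9 was at 38.0, 35.3, 51.2, 41.3 and 53.3 FPKM in exercised, 46.2, 45.1, 49.9, 52.1 and 58.2 FPKM in gap-matched and 39.5, 58.7, 44.5, 53.2 and 49.9 FPKM in sedentary libraries. Psmb10 was at 17.9, 17.8, 29.3, 18.0 and 30.1 FPKM in exercised, 32.4, 27.2, 24.2, 26.9 and 46.8 FPKM in gap-matched and 25.9, 35.0, 19.0, 31.2 and 26.2 FPKM in sedentary libraries. Each of these genes overlapped between all groups, and gap-matched 5 held the highest Psmb10. Their median difference was −0.28 in exercised and 0.10 in gap-matched against sedentary rats, and −0.41 between exercised and gap-matched rats. Psmb10 had the smallest p of them in the last comparison (−0.47 ± 0.20, adjusted p = 0.269).

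The ratio of an immunoproteasome subunit to the subunit it replaces is a description within each library. Psmb8 over Psmb5 averaged 0.595 ± 0.120 in exercised, 0.865 ± 0.273 in gap-matched and 0.657 ± 0.207 in sedentary rats (SD, n = 5 each). Psmb9 over Psmb6 averaged 0.606 ± 0.0913 in exercised, 0.537 ± 0.121 in gap-matched and 0.586 ± 0.158 in sedentary rats. Psmb10 over Psmb7 averaged 0.208 ± 0.0240 in exercised, 0.277 ± 0.0827 in gap-matched and 0.230 ± 0.0455 in sedentary rats. The groups overlapped in all 3 ratios. In every library Psmb10 was the subunit with the lowest ratio.

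**Figure D4:**
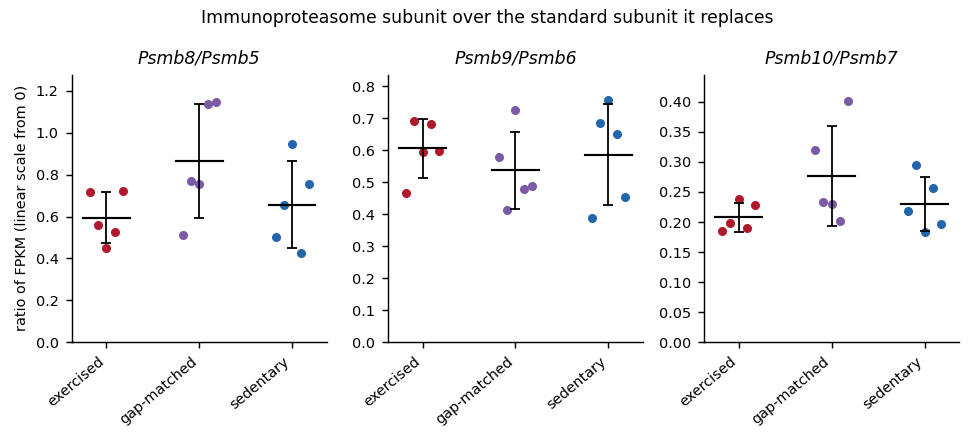
Ratio of FPKM of each immunoproteasome subunit to the standard subunit it replaces, by library, on a linear axis from 0. Points are libraries and bars are the mean ± SD of 5 in exercised, gap-matched and sedentary rats. Gap-matched 4 and gap-matched 5 have the highest ratios of Psmb8 to Psmb5, 1.14 and 1.15, and all groups overlap.

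Immune cells of the liver also express these subunits. The summed level of the Kupffer cell markers, of which 10 of 12 were tested and Vsig4 was listed at 0, was 541 to 760 FPKM in exercised, 504 to 748 FPKM in gap-matched and 364 to 628 FPKM in sedentary libraries. That of the lymphocyte markers, of which 5 of 13 were tested, was 15.3 to 25.2 FPKM in exercised, 17.3 to 27.2 FPKM in gap-matched and 11.6 to 25.4 FPKM in sedentary libraries. No marker of either list passed by limma. In exercised against sedentary rats 6 of 10 Kupffer markers (60%) had an unadjusted p under 0.05, against 21.1% of all genes. Of these 10 markers 2 had a negative difference, and their median difference was 0.31. In gap-matched against sedentary rats 2 of 5 lymphocyte markers (40%) had an unadjusted p under 0.05, against 17.8% of all genes. Neither list had such a marker in its other comparisons. Their part in the immunoproteasome values was not tested. Of 18 other genes of antigen processing and interferon response, among them the peptide transporter Tap1, none passed in any comparison, and 1, 2 and 0 had an unadjusted p under 0.05 in exercised against sedentary, gap-matched against sedentary and exercised against gap-matched rats. Of all genes, 21.1%, 17.8% and 16.5% did. Tap1 averaged 17.3 ± 2.58 FPKM in exercised, 14.3 ± 2.64 FPKM in gap-matched and 15.8 ± 2.56 FPKM in sedentary rats.

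The 6 base ATPases were lower in mean in both groups, with median differences of −0.34 in exercised and −0.25 in gap-matched against sedentary rats. Of them 2 passed in each comparison, and 5 and 4 had an unadjusted p under 0.05. Psmc4 was at 46.4, 52.1, 54.4, 54.3 and 58.0 FPKM in exercised, 53.3, 53.6, 52.3, 54.3 and 57.7 FPKM in gap-matched and 58.6, 66.3, 60.4, 74.3 and 61.8 FPKM in sedentary libraries. Its exercised and gap-matched libraries were all below the sedentary ones, but neither difference passed (−0.27 ± 0.08, adjusted p = 0.0613, and −0.24 ± 0.08, adjusted p = 0.131). Psmc2 was at 64.6, 57.6, 78.4, 60.5 and 92.2 FPKM in exercised, 75.6, 87.3, 73.5, 92.9 and 96.4 FPKM in gap-matched and 90.0, 94.0, 80.9, 90.7 and 99.1 FPKM in sedentary libraries. Exercised 5 stood among the sedentary libraries for Psmc2, and the other exercised libraries were below them all. The difference of Psmc2 from sedentary rats was −0.38 ± 0.12 in exercised (adjusted p = 0.0828) and −0.10 ± 0.12 in gap-matched rats (adjusted p = 0.721). Psmc3 and Psmc6 differed by −0.20 ± 0.08 and −0.29 ± 0.16 in exercised rats, and by −0.27 ± 0.08 and −0.01 ± 0.16 in gap-matched rats.

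Of the other base subunits, Psmd1 and Psmd2 are the large scaffolds and Psmd4 is a receptor for ubiquitin. None passed. Psmd1 was at 55.2, 65.8, 52.8, 64.4 and 62.6 FPKM in exercised, 55.2, 46.2, 55.2, 53.7 and 57.3 FPKM in gap-matched and 57.9, 70.9, 68.5, 65.8 and 68.9 FPKM in sedentary libraries. Gap-matched libraries were all below sedentary ones (−0.31 ± 0.09, adjusted p = 0.0726), and exercised libraries overlapped them. Psmd4 was at 55.0, 58.3, 55.7, 55.8 and 62.7 FPKM in exercised, 56.1, 59.6, 54.7, 67.4 and 73.3 FPKM in gap-matched and 62.5, 77.9, 67.5, 59.9 and 68.6 FPKM in sedentary libraries. Its groups overlapped, with a difference of −0.22 ± 0.09 in exercised rats (adjusted p = 0.190). The base chaperone Psmd5 was at 28.1, 27.0, 31.0, 26.2 and 27.2 FPKM in exercised, 27.0, 32.6, 30.9, 29.5 and 30.8 FPKM in gap-matched and 30.7, 32.3, 30.2, 29.8 and 37.9 FPKM in sedentary libraries. Only exercised 3 reached the sedentary range (−0.20 ± 0.08, adjusted p = 0.178).

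The 8 lid subunits had median differences of −0.21 in exercised and −0.23 in gap-matched against sedentary rats. Psmd3 in gap-matched rats was the only one to pass. Psmd14, the enzyme that cuts ubiquitin off the substrate, was at 27.1, 26.9, 31.3, 30.1 and 43.9 FPKM in exercised, 26.7, 27.6, 28.2, 27.5 and 28.9 FPKM in gap-matched and 36.6, 35.2, 29.8, 37.1 and 44.9 FPKM in sedentary libraries. Gap-matched libraries lay close together and below all sedentary ones, while exercised 5 stood apart from the rest of its group. The difference of Psmd14 was −0.21 ± 0.12 in exercised (adjusted p = 0.357) and −0.38 ± 0.12 in gap-matched rats (adjusted p = 0.116). Psmd11, a lid scaffold, was at 32.7, 42.9, 36.2, 38.6 and 36.8 FPKM in exercised, 34.3, 28.6, 36.6, 31.3 and 30.7 FPKM in gap-matched and 35.4, 36.4, 38.8, 38.0 and 39.7 FPKM in sedentary libraries. Gap-matched 3 alone reached the sedentary range. Psmd11 differed from sedentary rats by −0.01 ± 0.08 in exercised (adjusted p = 0.958) and by −0.22 ± 0.08 in gap-matched rats (adjusted p = 0.185).

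None of the 4 activators passed in any comparison. Psme1 and Psme2 form the interferon-responsive activator of the core. Psme1 was at 57.8, 57.5, 64.9, 58.0 and 78.0 FPKM in exercised, 68.3, 57.9, 57.2, 60.6 and 68.1 FPKM in gap-matched and 56.1, 58.8, 65.5, 64.5 and 59.8 FPKM in sedentary libraries. Psme2 was at 2.87, 0.852, 1.68, 0.908 and 1.67 FPKM in exercised, 1.64, 1.28, 1.28, 2.10 and 2.14 FPKM in gap-matched and 1.39, 1.90, 1.80, 1.24 and 1.70 FPKM in sedentary libraries. All groups overlapped for both, and Psme2 averaged 1.63 FPKM over all libraries, against 62.2 FPKM for Psme1. RefSeq lists 3 pseudogenes or like copies of each. Psme4, a nuclear activator, was at 25.8, 28.6, 26.1, 30.8 and 27.8 FPKM in exercised, 28.7, 27.9, 31.3, 31.0 and 29.1 FPKM in gap-matched and 26.2, 29.6, 22.3, 28.2 and 26.5 FPKM in sedentary libraries. It differed from sedentary rats by 0.07 ± 0.08 in exercised and by 0.15 ± 0.08 in gap-matched rats (adjusted p = 0.701 and 0.343).

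The core and the regulatory particle are described here library by library. Taken as the median deviation of a module's genes from their own means, the 14 standard ring genes were lowest in exercised 2, at −0.46, and highest in sedentary 5, at 0.36. They were also low in exercised 1 (−0.22), exercised 4 (−0.27), gap-matched 3 (−0.26) and sedentary 3 (−0.25), so each group held low and high libraries. The 17 base and lid genes ranged from −0.21 to 0.10 in exercised, from −0.15 to −0.01 in gap-matched and from 0.08 to 0.28 in sedentary libraries. For base and lid every gap-matched library was below 0 and every sedentary library above it, and exercised 5, at 0.10, was the only exercised library above. The spread within groups had a median of 0.24 for the ring genes and 0.14 for base and lid genes, against 0.20 for all genes tested.

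The 87 ribosomal protein entries moved with the rings in most libraries. Their median deviation was −0.16 in exercised 1, −0.43 in exercised 2, −0.34 in exercised 4, −0.20 in gap-matched 3 and −0.46 in sedentary 3, the libraries in which the rings were low. It was 0.31 in exercised 5 and 0.30 in sedentary 5, where the rings were at 0.25 and 0.36. The signs differed in gap-matched 1 (rings −0.07, ribosomal entries 0.10), sedentary 2 (0.07 and −0.04) and sedentary 4 (0.12 and −0.01). With the ribosomal median of each library as a covariate, an alternative chosen after the data were seen, 8 members fell in exercised and 10 in gap-matched against sedentary rats, and none rose. Of all genes, 5.09% and 2.67% fell in the same fits. The covariate was at −0.16, −0.43, 0.11, −0.34 and 0.31 in exercised libraries. It was at 0.10, 0.34, −0.20, 0.31 and 0.22 in gap-matched and at 0.08, −0.04, −0.46, −0.01 and 0.30 in sedentary libraries. It was thus not even between the groups, so adjusting for it can shift the group differences. Psmc5 did not pass in gap-matched rats in that fit (adjusted p = 0.0521), and no member passed between exercised and gap-matched rats, where the median member difference was 0.04 in place of −0.09. What the ribosomal entries and the rings share across libraries was not tested.

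**Figure D5:**
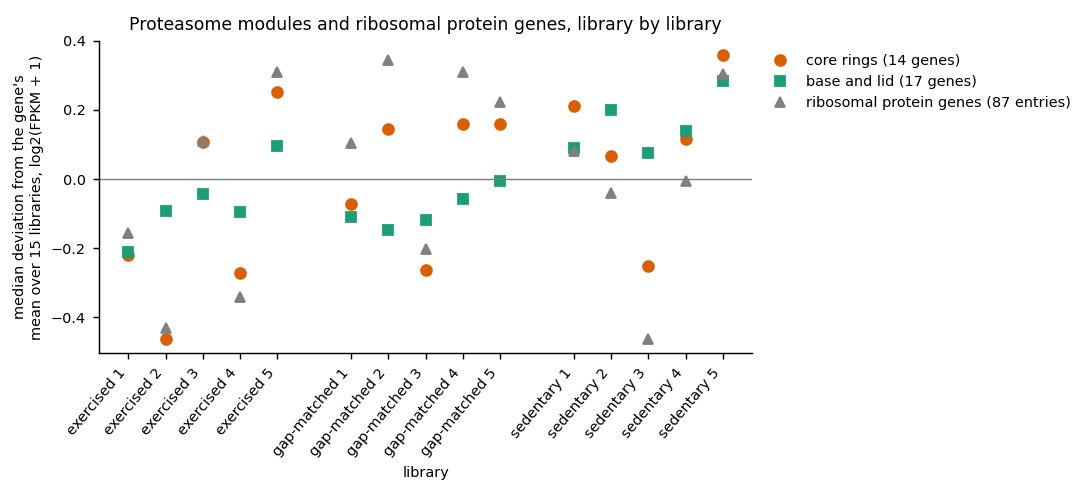
Median deviation from the genes' means over 15 libraries, on the log2(FPKM + 1) scale, for the 14 core ring genes, the 17 base and lid genes and the 87 ribosomal protein entries, by library, exercised then gap-matched then sedentary. Ring and ribosomal points are low together in exercised 1, exercised 2, exercised 4, gap-matched 3 and sedentary 3. Base and lid points are all below 0 in gap-matched and all above 0 in sedentary libraries.

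Of 18 tested genes for proteasome assembly and control, 1 rose and 1 fell in exercised against sedentary rats, where 2.51% and 3.26% of all genes did. Ddi2, the protease that activates the proteasome transcription factor Nfe2l1, rose. It was at 55.7, 61.8, 51.6, 54.5 and 46.9 FPKM in exercised, 40.7, 39.3, 40.3, 35.7 and 33.4 FPKM in gap-matched and 30.0, 28.4, 36.8, 30.2 and 25.5 FPKM in sedentary libraries. Every exercised library was above all others. The difference was 0.83 ± 0.10 from sedentary rats (limma adjusted p = 0.000421) and 0.50 ± 0.10 from gap-matched rats (adjusted p = 0.0360). Gap-matched rats differed from sedentary rats by 0.32 ± 0.10 (adjusted p = 0.0934). Psmg1, a chaperone of the alpha ring, fell to 20.6 ± 1.78 FPKM in exercised rats, against 28.3 ± 2.79 FPKM in sedentary rats (−0.43 ± 0.10, adjusted p = 0.0197). Psmg1 did not pass without exercised 4 or sedentary 2 (adjusted p = 0.0517 and 0.0600). Against gap-matched rats, Ddi2 did not pass without exercised 1, 2 or 4 or gap-matched 2, 4 or 5 (adjusted p 0.0641 to 0.0916).

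In gap-matched against sedentary rats, where 2.23% of all genes fell, 1 of the 18 did, Adrm1, a ubiquitin receptor of the base. It averaged 55.0 ± 4.02 FPKM in gap-matched and 73.3 ± 3.10 FPKM in sedentary rats (−0.41 ± 0.08, limma adjusted p = 0.0126). Its gap-matched libraries were all below the sedentary ones. Between exercised and gap-matched rats, where 0.687% of all genes rose, 2 of the 18 did, Ddi2 and Ubr4, a ubiquitin ligase. Ubr4 averaged 18.6 ± 3.61 FPKM in exercised and 11.7 ± 1.22 FPKM in gap-matched rats (0.61 ± 0.11, adjusted p = 0.0255), and did not pass without exercised 1, 2 or 4 or gap-matched 2, 4 or 5 (0.0542 to 0.0712). Nfe2l1 itself averaged 28.1 ± 4.10 FPKM in exercised, 25.3 ± 3.84 FPKM in gap-matched and 26.8 ± 1.75 FPKM in sedentary rats, and no difference passed. The core maturation factor Pomp averaged 243 ± 59.8 FPKM in exercised, 280 ± 23.5 FPKM in gap-matched and 261 ± 35.9 FPKM in sedentary rats. The proteasome regulator Psmf1 averaged 41.5 ± 5.15 FPKM in exercised, 41.7 ± 3.58 FPKM in gap-matched and 49.5 ± 6.12 FPKM in sedentary rats. The ubiquitin-trimming enzyme Usp14 averaged 12.6 ± 0.843 FPKM in exercised, 12.7 ± 1.18 FPKM in gap-matched and 13.6 ± 1.90 FPKM in sedentary rats. Pomp, Psmf1 and Usp14 did not pass in any comparison.

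Of 27 tested genes for ubiquitin and its delivery, 1 fell in exercised and 1 in gap-matched against sedentary rats, where 3.26% and 2.23% of all genes did. Nsfl1c, a cofactor of the segregase that extracts tagged proteins, averaged 61.5 ± 5.54 FPKM in exercised and 76.6 ± 7.56 FPKM in sedentary rats (−0.31 ± 0.09, limma adjusted p = 0.0491). Ubqln1, a shuttle to the proteasome, averaged 70.4 ± 3.22 FPKM in gap-matched and 86.5 ± 5.06 FPKM in sedentary rats (−0.29 ± 0.07, adjusted p = 0.0341). With 1 library of the groups compared left out in turn, Nsfl1c passed only without exercised 5 or sedentary 1, and Ubqln1 only without sedentary 4. In the other such fits the adjusted p was 0.0548 to 0.118 for Nsfl1c and 0.0515 to 0.0869 for Ubqln1. Ubb, a polyubiquitin gene, averaged 2068 ± 282 FPKM in exercised, 1938 ± 119 FPKM in gap-matched and 2484 ± 377 FPKM in sedentary rats, and no difference passed.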

How the data were processed

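The series holds 15 liver RNA-seq libraries in 3 groups of 5, and columns were matched to groups through the column names in the labels. Expression was deposited by the authors as FPKM for each Ensembl gene. The submitters' processing notes name Trimmomatic, Cufflinks and the build Rnor_5.0 with no version of the tools. Aligner and filters are not given in the sources used here. Of 26407 entries, 2 that repeated an identifier and 2 that held the placeholder 999999999 were dropped.

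The 11216 genes that averaged 1 FPKM or more were analysed on the log2(FPKM + 1) scale as deposited. This scale understates fold differences of low genes. One limma fit (version 3.58.1, R 4.3.3) covered all 3 groups, using the mean trend of the variance and two-sided tests. Adjusted p-values are Benjamini-Hochberg values over all genes tested, and a gene passed under 0.05. Summaries and plots were made in Python 3.11.15 with pandas 2.3.3, numpy 2.4.6 and matplotlib 3.10.9. The fit was tested on simulated data. Names matched RefSeq (GRCr8) for 43 of 43 members, and 38 had a start region there. Relative depth came from the step size of genes with low FPKM.

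Values in every library are given for the members that passed, for the member with the smallest p of each place in the complex in each comparison, and for a panel of catalytic, immunoproteasome, base, lid and activator genes. Of the other lists, up to 4 members that passed are named per comparison. A result for 1 gene of the ubiquitin list is not reported here. The members, lists and panel were chosen with earlier results of these data known. The alternatives were other pseudocounts, filters, scalings, variance trends, 2 groups only, the replicate number as a block and leaving out each library. Summing the second entries of Psma3 and Psmb6 and the ribosomal covariate were added after the data were seen.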

Additional observations from a re-analysis of the deposited data

Results flagged for a closer look

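Of 123 combinations of member and group, 3 held a library that stood apart from the other 4 by Dixon's test with a critical value of 0.71, which chance gives in about 5% of groups. Psma3, a subunit of the alpha ring, was at 16.3 FPKM in sedentary 3, against 24.0 to 26.3 FPKM in the other sedentary libraries. Psmd12, a scaffold subunit of the lid, was at 74.4 FPKM in sedentary 5, against 59.5 to 63.4 FPKM in the others of its group. Psmd14, the ubiquitin-removing enzyme of the lid, was at 43.9 FPKM in exercised 5, against 26.9 to 31.3 FPKM in the other exercised libraries. Each of these libraries stood apart for 1 member only.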

How the results depend on the processing

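Of 2826 values of the 41 members under alternatives, 2768 stayed on the same side of the threshold, 35 no longer passed and 23 newly passed. No call reversed its direction. Differences that did not pass could change sign, as that of Psma3 in exercised against sedentary rats did in 9 settings. Most of these values belong to results that did not pass as deposited, so the total says little about those that did. In gap-matched rats, Psmc5 passed in 2 of 10 fits without 1 library of the groups compared and in 6 of 13 other settings. Psmd9 passed there in 4 and 10, Psmc1 in 6 and 12, and Psmd3 in all. In exercised rats, Psmb2 passed in 7 and 12, Psmc5 in 8 and 13, and Psmc1 and Psmd9 in all. No member rose in any comparison under any alternative. Leaving out each of the 10 libraries of the groups compared gave 2 to 7 members lower in exercised and 1 to 4 lower in gap-matched against sedentary rats, with 342 to 642 and 147 to 357 of all genes called. Between exercised and gap-matched rats it gave 0 members and 18 to 131 genes. Leaving out libraries of the third group gave at most 5 members lower in gap-matched rats, without exercised 5.

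In gap-matched against sedentary rats, 9 members were lower with equal library sums, 2 with scaling by the median of ratios, 2 with only 2 groups fitted, 1 with the replicate block and 10 with the ribosomal covariate. In exercised against sedentary rats 8 were lower with the covariate and 7 at a threshold of 0.1. Of all genes, 334, 168 and 29 were called without a filter, and 1108, 653 and 272 at the threshold of 0.1, in exercised against sedentary, gap-matched against sedentary and exercised against gap-matched rats. The covariate gave 1017 in the first comparison. In the last comparison 34 were called with equal library sums and 16 with only 2 groups. The cause was not tested. With the covariate, the median member difference between exercised and gap-matched rats changed sign, to 0.04. Of genes called between exercised and gap-matched rats, 23.8% were lower as deposited, 40.7% by the median of ratios and 36.8% after quantile normalization.

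Whether the replicate numbers pair the samples is not known. Deviations were correlated over 0.1 in 2 of 15 same-numbered pairs and in 15 of 60 differently numbered pairs. Such correlations cannot show how the samples were paired. The replicate block gave 201 genes in gap-matched against sedentary rats and 20 between exercised and gap-matched rats, and it left 4 members lower in exercised rats.

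Absolute depth is unknown, so no counting interval can be given.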

Other observations

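Chaperones fold or hold proteins that may otherwise go to the proteasome. The 17 genes listed as chaperones include the mitochondrial Hspd1 and Hspe1 and the transcription factor Hsf1. Of these 17 genes, 1 rose and 3 fell in exercised against sedentary rats, and 6 fell in gap-matched against sedentary rats. Between exercised and gap-matched rats 3 were higher in exercised rats. Of all genes tested, 2.51% rose and 3.26% fell in the first of these comparisons. In the second 2.23% fell, and in the last 0.687% were higher in exercised rats. Those that fell in exercised rats were Hspa8, Dnajb1 and Hspa4l. Hspa8, a constitutive heat shock protein whose copies in the genome make its level uncertain, averaged 6.12 ± 1.29 FPKM in exercised, 8.37 ± 1.10 FPKM in gap-matched and 13.1 ± 2.88 FPKM in sedentary rats. Its difference was −0.97 ± 0.15 in exercised against sedentary rats (limma adjusted p = 0.00189). Dnajb1, a co-chaperone, averaged 24.7 ± 3.17 FPKM in exercised, 28.3 ± 4.21 FPKM in gap-matched and 37.8 ± 6.16 FPKM in sedentary rats. Its difference was −0.58 ± 0.13 in exercised against sedentary rats (adjusted p = 0.0146). Hspa8 and Dnajb1 passed in this comparison without each of the 10 libraries in turn. Hspa4l averaged 2.23 ± 0.683 FPKM in exercised and 4.16 ± 0.993 FPKM in sedentary rats (−0.68 ± 0.18, adjusted p = 0.0391), and did not pass without exercised 1, 2 or 5 or sedentary 1, 2, 3 or 5 (adjusted p of 0.0578 or more). Hsph1, a nucleotide exchange factor of heat shock proteins, averaged 55.1 ± 11.3 FPKM in exercised, 22.8 ± 3.79 FPKM in gap-matched and 35.4 ± 7.43 FPKM in sedentary rats. It was higher in exercised than in gap-matched rats by 1.23 ± 0.16 (limma adjusted p = 0.00142) and higher than in sedentary rats by 0.63 ± 0.16 (adjusted p = 0.0269). The difference from sedentary rats did not pass without exercised 4 or 5 or sedentary 1, 4 or 5 (adjusted p 0.0526 to 0.0677). Stip1, a co-chaperone, averaged 67.8 ± 8.31 FPKM in exercised, 44.1 ± 3.11 FPKM in gap-matched and 66.9 ± 9.05 FPKM in sedentary rats. Its difference was −0.58 ± 0.11 in gap-matched against sedentary rats (adjusted p = 0.0109) and 0.02 ± 0.11 in exercised against sedentary rats (adjusted p = 0.939). Also lower in gap-matched than in sedentary rats were Hspa4l (−0.85, limma adjusted p = 0.0200), Cct3 (−0.40, 0.0208) and Hsp90ab1 (−0.49, 0.0276). With 1 library of the groups compared left out in turn, they passed in 7, 6 and 4 of 10 fits. Hsp90ab1 and Stip1 were higher in exercised than in gap-matched rats, by 0.64 and 0.60 (limma adjusted p = 0.0210 and 0.0206). They passed there in 6 and 7 of 10 such fits.

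Of 10 autophagy genes, 2 rose in exercised against sedentary rats, 1 fell in gap-matched against sedentary rats and 1 was higher in exercised than in gap-matched rats. Of all genes tested, 2.51%, 2.23% and 0.687% did so. Gabarapl1, a protein of the autophagosome membrane, was at 143, 164, 169, 143 and 155 FPKM in exercised, 107, 95.3, 101, 102 and 98.0 FPKM in gap-matched and 93.0, 80.3, 97.3, 99.2 and 82.9 FPKM in sedentary libraries. Every exercised library was above all others, with differences of 0.77 ± 0.08 from sedentary rats (limma adjusted p = 0.000107) and 0.61 ± 0.08 from gap-matched rats (adjusted p = 0.00246). Nbr1, a receptor that brings ubiquitin-tagged cargo to autophagosomes, averaged 86.9 ± 7.09 FPKM in exercised and 64.7 ± 5.89 FPKM in sedentary rats (0.42 ± 0.09, adjusted p = 0.0120). Ulk1, the kinase that starts autophagy, was the one to fall in gap-matched rats, at 15.3 ± 2.14 FPKM, against 23.9 ± 3.96 FPKM in sedentary rats (−0.61 ± 0.13, adjusted p = 0.0196), though not without gap-matched 5 or sedentary 2 or 3 (0.0511 to 0.0594).

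Genes of chromosome X were mostly listed at 0. Of 596 protein-coding entries whose names RefSeq places on X, 522 (87.6%) were at 0 in all 15 libraries, against 7.98% to 19.1% on the 20 autosomes. Among them were Uba1, the main enzyme that activates ubiquitin, Huwe1 and Ubqln2, so these could not be compared. Psmd10 is the member on X and was listed at 9.65 FPKM on average.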
